A study of Homo sapiens with 16 samples.

Results

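GSK2830371, an inhibitor of the phosphatase PPM1D, was added to nutlin in 2 human cell lines labelled as papillary thyroid carcinoma, TPC1 and K1, and the question was in which genes its effect on RNA levels differed between the lines. 8 of the 16 RNA-seq libraries of the series carry this comparison: 2 of TPC1 with nutlin, 2 of TPC1 with nutlin plus GSK2830371 (the combination), and the same 4 of K1. They were chosen by line and treatment label alone. Nutlin was Nutlin-3a at 10 µM, GSK2830371 was at 25 µM, and exposure lasted 24 h. The other 8 libraries, 2 of each line with the 0.2% DMSO vehicle and 2 with GSK2830371 alone, shared the fit and gave the same line comparison in cells without nutlin. TPC1 was grown in RPMI and K1 in DMEM, so line, medium and library set cannot be told apart. The study describes its replicates in general as biological and made separately, and the sample labels say no more on this. K1 replicates are numbered 1 and 2. TPC1 replicates are given as 1 and 3, as in the count table.

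The TPC1 libraries held between 30789887 and 76648552 counts each, and those of K1 between 28888686 and 37161241. In TPC1 depth followed the replicate number, at 30789887 to 36896529 counts in replicate 1 and 62853375 to 76648552 in replicate 3. The spread between replicates was larger in TPC1, with a common dispersion of 0.00828 against 0.00273 in K1, and FN1 (fibronectin) took 6.47% to 7.26% of the K1 counts. Of 12 thyroid follicular markers, 3 or 4 reached 1 CPM (a read count scaled to library size) in any group. As group means, PAX8, the thyroid transcription factor, lay between 319 and 469 CPM in TPC1, and between 764 and 835 CPM in K1, TSHR (the thyrotropin receptor) had no count in any library, and NKX2-1 had none in TPC1. RNA was taken from whole cultures, so fewer cells of a kind and less RNA per cell cannot be told apart.

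MDM2 is a ubiquitin ligase that holds p53 in check, and nutlin blocks its contact with p53. PPM1D is a phosphatase that p53 itself induces and that removes phosphates from p53 and from the kinases upstream of it. ATF4 is the main transcription factor of the integrated stress response, in which phosphorylation of the initiation factor eIF2α slows general translation while ATF4 messenger RNA is translated more. ATF4 then drives genes for amino acid uptake, amino acid synthesis and tRNA charging, together with the stress factors DDIT3 (CHOP), ATF3 and CHAC1.

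The line difference of a gene was its log2 change from nutlin to the combination in K1 minus the same change in TPC1. A value below 0 means that the gene rose less, or fell more, in K1. Genes were called at a Benjamini-Hochberg adjusted p under 0.05 and a difference above 1.5-fold (0.585 on the log2 scale), by edgeR's quasi-likelihood test over 16738 genes. This gave 856 genes (5.11% of those tested), of which 428 lay above 0 (2.56%) and 428 below 0 (2.56%). Most of them were genes that moved in TPC1. Of the 428 above 0, 327 fell in TPC1, and 313 of those were not called in K1. Of the 428 below 0, 322 rose in TPC1, and 294 of those were not called in K1. The median change in TPC1 was -0.82 in the upper set and 0.91 in the lower set, and the median in K1 was 0.00 and -0.02. Genes called in neither line made up 89 of the upper and 69 of the lower set.

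Within TPC1, 1102 genes (6.58%) rose and 979 (5.85%) fell when GSK2830371 was added to nutlin. In K1 131 genes (0.783%) rose and 201 (1.2%) fell, 1.98% in either direction. Without K1 nutlin replicate 2 these were 61 and 98, and without K1 combination replicate 1 they were 69 and 114. Without K1 combination replicate 2 the fit called 70 as raised. Both lines shared the estimate of a gene's spread, although the spread was larger in TPC1. An alternative fit that weighted each line by its own spread (limma voom) called 222 raised and 256 lowered in K1, and 829 lowered in TPC1. 69 genes rose in both lines, which was 6.26% of the TPC1 and 52.7% of the K1 list, and 94 fell in both, which was 9.6% and 46.8%. Over 11577 genes at 1 CPM or more in the nutlin libraries of both lines, the changes in TPC1 and K1 had a Pearson r of 0.509 and a Spearman rho of 0.462, and 66% had the same sign. Over these genes the SD of the changes was 0.423 in TPC1 and 0.241 in K1. These points share libraries within a line but not between lines. Over the 12795 genes with a mean of 1 CPM or more across all libraries r was 0.354.

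**Figure D1:**
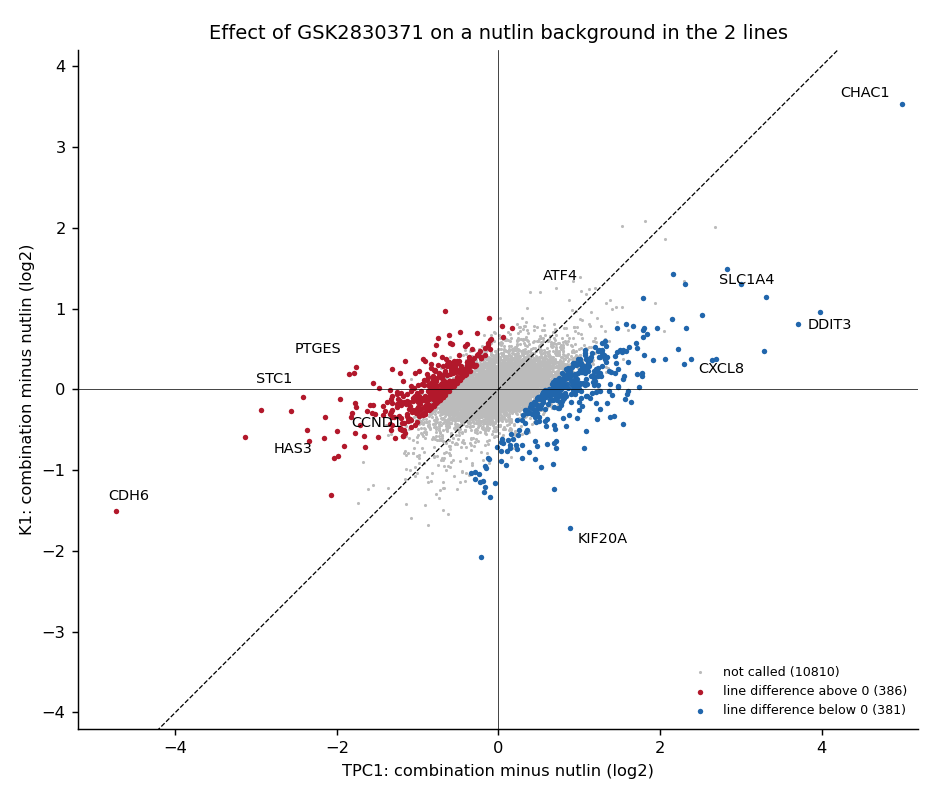
Log2 change from nutlin to the combination in TPC1 (x axis) and K1 (y axis) for the 11577 genes at 1 CPM or more in both lines, one dot a gene, with red and blue for called line differences above (386) and below (381) 0 and a dashed line at equal change. Called genes spread along the TPC1 axis at K1 changes near 0, while CHAC1 is far up in both lines and KIF20A rises in TPC1 and falls in K1.

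The messenger RNA of ATF4 did not separate the lines, and its protein was not measured here. The RNA was at 486 and 513 CPM with nutlin and 1022 and 1099 CPM with the combination in TPC1. In K1 it was at 330 and 340 CPM and then 741 and 774 CPM. It rose in both, by 1.09 ± 0.09 (log2 ± SE, n = 2 libraries a group throughout) in TPC1 and 1.18 ± 0.09 in K1, and the line difference was 0.09 ± 0.12 (adjusted p = 0.74). Some ATF4 target genes did separate them. Of 55 tested members of a list of ATF4 target genes, 39 rose in TPC1 and 28 in K1, 19 (34.5%) had a called line difference below 0 and 1 had one above. Over all genes tested 6.58% rose in TPC1 and 0.783% in K1, and 2.56% were called each way. Median changes were 1.06 (TPC1) and 0.61 (K1), with a median line difference of -0.43 against 0.00 over all genes tested. Leaving out the 3 members that are also p53 targets left 18 of 52. The list also separated the lines without nutlin, with a median line difference of -0.35 against 0.02 over all genes tested. There 7 of the 55 were called below 0 and 0 above, against 1.58% and 0.597% of all genes tested.

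DDIT3 (GRCh37 chr12:57910371-57915520, minus strand), the pro-apoptotic factor CHOP, had the largest line difference of the list. Both lines held it at a like level with nutlin, 13.8 and 14.3 CPM in TPC1 and 13.66 and 13.98 CPM in K1. With the combination it reached 213 and 157 CPM in TPC1 and 24.7 and 23.9 CPM in K1, so the TPC1 libraries lay far above all others. The rise was 13.1-fold in TPC1 and 1.76-fold in K1, a line difference of -2.90 ± 0.18 (adjusted p = 1.2e-07). Its level in TPC1 without nutlin was lower, at 4.01 and 4.83 CPM with vehicle and 12.98 and 12.59 CPM with GSK2830371 alone. GSK2830371 alone thus went with a higher level there, and the line difference without nutlin was also negative, though smaller.

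CHAC1 (chr15:41245160-41248710, plus strand), which degrades glutathione, rose most of the list in both lines. It went from 10.5 and 9.98 CPM to 304 and 348 CPM in TPC1, 31.9-fold, and from 6.95 and 5.01 CPM to 64.0 and 74.1 CPM in K1, 11.6-fold. The line difference was -1.46 ± 0.20 (adjusted p = 0.00037), and without nutlin it was of the same size, -1.48, and also called.

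SLC1A4 (chr2:65215611-65250999, plus strand), a transporter of alanine, serine and cysteine, started from different levels. Nutlin libraries held 2.80 and 2.47 CPM in TPC1 and 25.6 and 19.1 CPM in K1. The combination brought TPC1 to 26.9 and 24.8 CPM, 9.91-fold higher and above its vehicle level of 16.9 and 15.7 CPM. In K1 it brought 51.0 and 47.2 CPM, 2.21-fold higher, and the line difference was -2.17 ± 0.19 (adjusted p = 3.9e-06). Its relative SLC1A5, a glutamine transporter, had a line difference of -1.04 ± 0.16 (adjusted p = 0.00066).

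STC2, a secreted glycoprotein induced by stress, rose from 7.69 and 8.26 CPM to 63.2 and 65.5 CPM in TPC1 and from 21.7 and 12.3 CPM to 41.9 and 42.2 CPM in K1. PCK2, the mitochondrial enzyme that makes phosphoenolpyruvate, rose from 27.7 and 29.4 CPM to 160 and 168 CPM in TPC1 and from 26.2 and 15.6 CPM to 41.9 and 36.8 CPM in K1. In both genes the combination libraries of TPC1 lay above all 4 nutlin libraries and above K1. The line differences were -1.70 ± 0.29 (adjusted p = 0.0017) for STC2 and -1.60 ± 0.29 (adjusted p = 0.003) for PCK2. ASNS, which makes asparagine, gave -1.28 ± 0.29 (adjusted p = 0.012), with group means of 56.8 CPM under nutlin and 252 CPM under the combination in TPC1, against 67.0 and 122 CPM in K1.

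PPP1R15A (GADD34), the phosphatase subunit that reverses eIF2α phosphorylation, rose in TPC1 from 62.7 and 67.5 CPM to 231 and 164 CPM. In K1 it stood at 205 and 198 CPM with nutlin and 255 and 253 CPM with the combination, a change of 0.34 that was not called. Its line difference was -1.26 ± 0.17 (adjusted p = 0.00032). It was the only member called among 14 genes of the eIF2 pathway (7.14%), against 5.11% of all genes tested. Among the 4 eIF2α kinases the line difference ran from 0.02 for EIF2AK4 (GCN2) through 0.24 for EIF2AK2 (PKR) and 0.34 for EIF2AK1 (HRI) to 0.53 for EIF2AK3 (PERK), and the last alone had an adjusted p under 0.05 (0.0087), with a difference under 1.5-fold.

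The tRNA group of the list holds 13 genes, the aminoacyl-tRNA synthetases that load tRNAs with amino acids and XPOT, which exports tRNA from the nucleus. All 13 had a line difference below 0, against 8307 of the 16738 genes tested. 9 of them rose in TPC1, with a median change of 0.81 over the 13. In K1 edgeR called 0 of them and DESeq2 called 0, but 11 rose at an unadjusted p under 0.05, with a median change of 0.34. The 5 called line differences (38.5%) were -0.70 for AARS, -0.67 for GARS, -0.76 for SARS, -0.77 for WARS and -0.92 for XPOT. Of all genes tested 6.58% rose in TPC1, 0.783% rose in K1 and 2.56% were called below 0. At such a share in K1, 0 of 13 does not set this group apart.

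Other members rose by a like amount in both lines. ADM2 rose by 1.82 in TPC1 and 2.08 in K1, GDF15 by 1.54 and 2.03, CTH by 2.06 and 1.87, and SLC3A2 by 1.02 and 1.21, and their line differences (0.26, 0.49, -0.19 and 0.19) were not called. GDF15, a stress cytokine that is also a p53 target, was at very different levels, with group means of 1705 CPM in TPC1 and 1.33 CPM in K1 under nutlin. KLHL24 was the single member with a called line difference above 0 (0.95 ± 0.20, adjusted p = 0.0078). It was at 58.4 and 60.1 CPM and then 48.7 and 40.3 CPM in TPC1, and at 20.3 and 23.4 CPM and then 28.5 and 34.7 CPM in K1, and neither change was called.

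**Figure D2:**
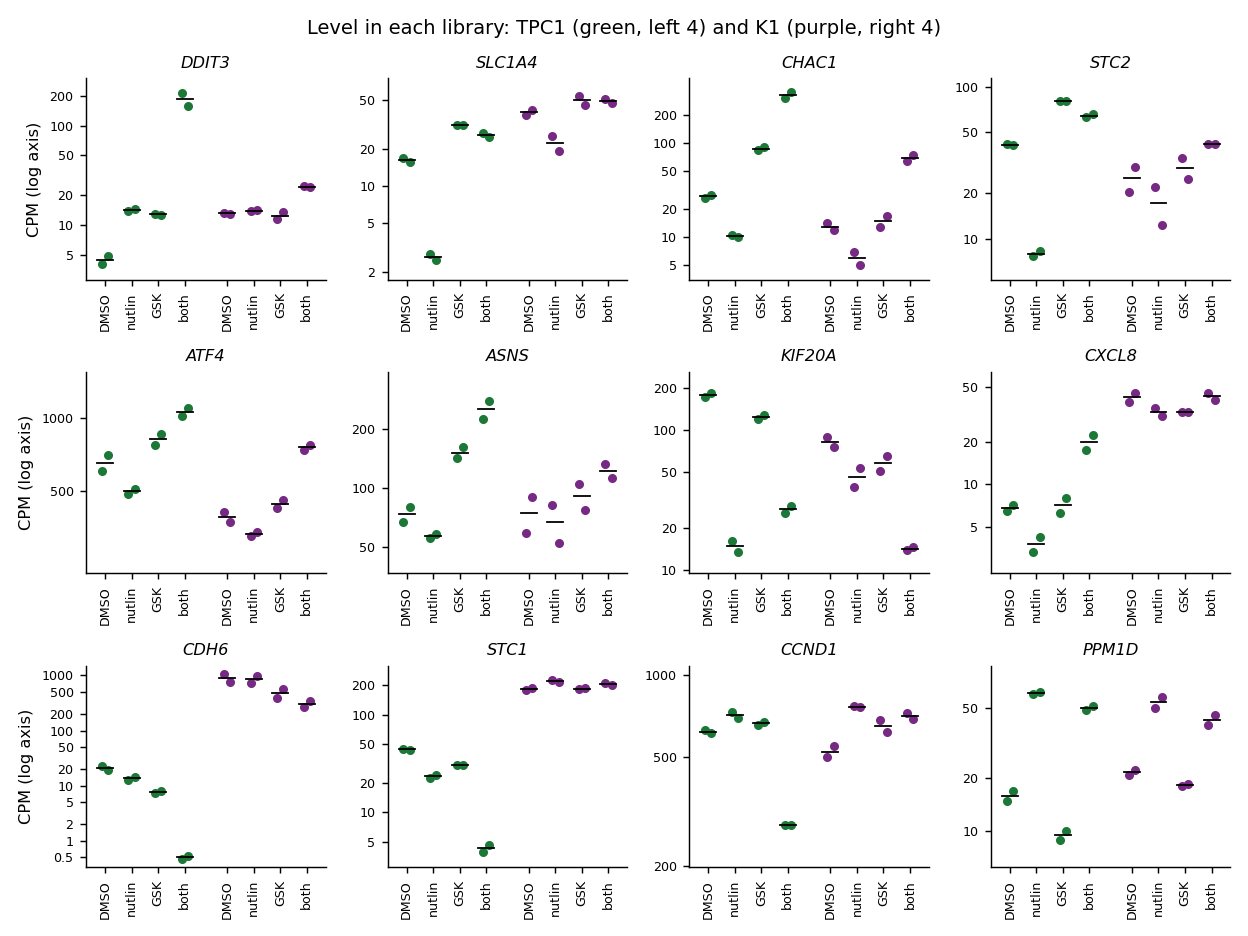
CPM (log axis) of 12 genes in each of the 16 libraries, with dots for libraries and bars for the mean of 2, TPC1 in green and K1 in purple, each in the order DMSO, nutlin, GSK2830371, and both drugs. DDIT3 is by far highest in the TPC1 combination libraries, with smaller rises with GSK2830371 alone in TPC1 and with the combination in K1. From nutlin to both drugs ATF4 rises by a like step in both lines, KIF20A rises in TPC1 and falls in K1, and CDH6, STC1 and CCND1 drop in TPC1.

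The promoters of these genes were searched for TGATGNAA on either strand, the core that C/EBP and ATF factors bind as dimers, in a window from 250 bases before to 50 after the start (RefSeq, GRCh38.p14). It was in 3.07% of 12695 promoters of all genes tested, in 3.48% of 345 promoters of genes with a line difference above 0, and in 8.53% (29 of 340) of the promoters of those below 0. For the 19 ATF4 target genes below 0, 7 of the 16 with a promoter held it (43.8%, 95% interval 19.8% to 70.1%). Over the whole list of 55 tested ATF4 target genes, 15 of 42 held it (35.7%, interval 21.6% to 52.0%). These intervals overlap, and a link of the core to the line difference within the list was not tested. For genes that rose in both lines 12 of 57 held it. A match is a letter match only. The 7 windows of 40 bases are those of the 7 ATF4 target genes below 0 that hold the match, shown so that the matches can be compared, each 5′ to 3′ on the gene's strand with the match, or its reverse complement, in capitals.
ATF3, chr1:212565200-212565239, plus strand: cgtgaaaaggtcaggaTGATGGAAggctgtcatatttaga
CEBPG, chr19:33374055-33374094, plus strand: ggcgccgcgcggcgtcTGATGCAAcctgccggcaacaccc
SLC1A4, chr2:64989376-64989415, plus strand: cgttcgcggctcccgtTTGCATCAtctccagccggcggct
SLC1A5, chr19:46784888-46784927, minus strand: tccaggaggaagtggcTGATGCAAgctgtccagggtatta
ASNS, chr7:97872453-97872492, minus strand: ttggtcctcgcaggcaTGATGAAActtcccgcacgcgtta
AARS, chr16:70289670-70289709, minus strand: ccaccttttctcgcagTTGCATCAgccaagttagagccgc
CHAC1, chr15:40953246-40953285, plus strand: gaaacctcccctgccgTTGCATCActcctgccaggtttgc

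Of 80 p53 target genes tested, 17 rose in TPC1 and 7 in K1, 5 (6.25%) had a called line difference below 0 and 2 above, and the median line difference was -0.12. Of all genes tested 6.58% rose in TPC1 and 0.783% in K1, and 2.56% were called each way. CDKN1A (p21), the cell cycle inhibitor, rose in both lines, from 6819 and 6997 CPM to 11540 and 13540 CPM in TPC1 and from 967 and 1055 CPM to 1512 and 1552 CPM in K1. Its line difference was -0.26 ± 0.15 (adjusted p = 0.32). BBC3 (PUMA) gave -0.10 ± 0.15 (adjusted p = 0.76), FAS -0.31 ± 0.14 (0.18) and TP53I3 -0.19 ± 0.14 (0.45).

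The targets called below 0 were ATF3, PMAIP1, GADD45A, PTP4A1 and PLK3. PMAIP1 (NOXA), a pro-apoptotic BCL2 family member, rose from 24.4 and 25.0 CPM to 68.7 and 87.6 CPM in TPC1 and from 22.8 and 20.7 CPM to 35.9 and 38.9 CPM in K1. The levels with nutlin were close and those with the combination did not overlap, and the line difference was -0.88 ± 0.15 (adjusted p = 0.002). GADD45A, a stress sensor, rose 2.37-fold in TPC1, from 182 and 188 CPM to 404 and 475 CPM. In K1 it was at 115 and 113 CPM and then 157 and 163 CPM, a 1.41-fold change that was not called, and the line difference was -0.76 ± 0.14 (adjusted p = 0.0031). ATF3, a factor under both p53 and ATF4, went from 5.77 and 5.77 CPM to 38.2 and 43.9 CPM in TPC1 and from 1.92 and 1.07 CPM to 4.23 and 4.12 CPM in K1. Its line difference of -1.34 ± 0.36 (adjusted p = 0.028) was no longer called without any 1 of 6 libraries (both K1 combination libraries, K1 nutlin replicate 1, TPC1 combination replicate 3 and both TPC1 nutlin libraries), at values from -1.36 to -0.88. RNF144B and ABCA12 were called above 0, at 0.68 and 0.60, and neither was called within a line.

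Of 3 repressors of p53, 1 (MDM4) had a called line difference, against 5.11% of all genes tested. PPM1D, the drug's target, was at 59.8 and 61.8 CPM with nutlin and 48.5 and 51.4 CPM with the combination in TPC1, and at 50.2 and 57.6 CPM and then 39.9 and 45.9 CPM in K1. Its line difference was -0.05 ± 0.13 (adjusted p = 0.9). The drug blocks the protein, so this level does not check the treatment. MDM4, an MDM2 relative that masks p53, rose in TPC1 from 52.1 and 48.7 CPM to 86.1 and 76.2 CPM and was at 32.6 and 33.1 CPM and then 31.6 and 35.5 CPM in K1. The line difference was -0.66 ± 0.15 (adjusted p = 0.012), and it was no longer called without 1 of 3 libraries (K1 combination replicate 1, TPC1 combination replicate 1 or TPC1 nutlin replicate 3), at -0.59, -0.57 and -0.61. MDM2 rose in K1, by 0.63, and changed by 0.24 in TPC1, and its line difference of 0.39 ± 0.12 (adjusted p = 0.042) was under 1.5-fold.

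Genes of the G2 and M phases fell in both lines, more of them in K1. Of 46 tested, 43 fell in K1 and 30 in TPC1, 11 (23.9%) had a called line difference below 0 and 2 above. Of all genes tested 1.2% fell in K1 and 5.85% in TPC1, and 2.56% were called each way. The median change was -1.05 in K1 and -0.76 in TPC1, and the median line difference was -0.33. Nutlin alone had already lowered the list by a median of 4.11 in TPC1 and 1.13 in K1, so counts in TPC1 were small, and an alternative fit that weighted each line by its own spread (limma voom) called 2 below 0. Without 1 library the count below 0 was 3 (K1 combination replicate 1 or K1 nutlin replicate 2), 4 (TPC1 nutlin replicate 1 or TPC1 combination replicate 3) or 5 (TPC1 nutlin replicate 3). KIF20A (chr5:137514408-137523412, plus strand), a kinesin of cytokinesis, was called in opposite directions. It rose in TPC1 from 16.1 and 13.5 CPM to 25.7 and 28.8 CPM and fell in K1 from 39.1 and 54.2 CPM to 13.8 and 14.5 CPM, a line difference of -2.61 ± 0.21 (adjusted p = 2.7e-06). The groups did not overlap within either line, and the order of the lines turned over. Without nutlin its line difference was 0.02.

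5 genes in all rose in TPC1 and fell in K1, and 2 did the reverse. Beside KIF20A, those that rose in TPC1 and fell in K1 were FAM83D, a spindle protein (-1.93 ± 0.18), HMGB2, a chromatin protein (-1.78 ± 0.22), FBXO5, an inhibitor of the anaphase-promoting complex (-1.28 ± 0.22), and CCIN, which had 0 and 0 counts with nutlin in TPC1 and 1 and 5 with the combination. FAM83D was at 45.1 and 45.9 CPM and then 67.6 and 78.9 CPM in TPC1, and at 34.2 and 46.7 CPM and then 16.9 and 17.4 CPM in K1. The reverse pair was GCNT3, a mucin glycosyltransferase, and PDGFRL, at 1.29 ± 0.20 and 1.63 ± 0.26. GCNT3 went from 116 and 127 CPM to 91.1 and 68.1 CPM in TPC1 and from 7.84 and 9.80 CPM to 14.1 and 14.2 CPM in K1. Other mitotic genes called below 0 had fallen in K1 with no call in TPC1, among them CDCA8 (-1.22), BUB1B (-1.10), CCNB2 (-0.94) and AURKB (-0.82). FOXM1, a driver of mitotic genes, and SPC24, a kinetochore protein, were above 0, at 0.66 and 1.21. Both fell in TPC1, and SPC24 fell in K1 too.

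**Figure D3:**
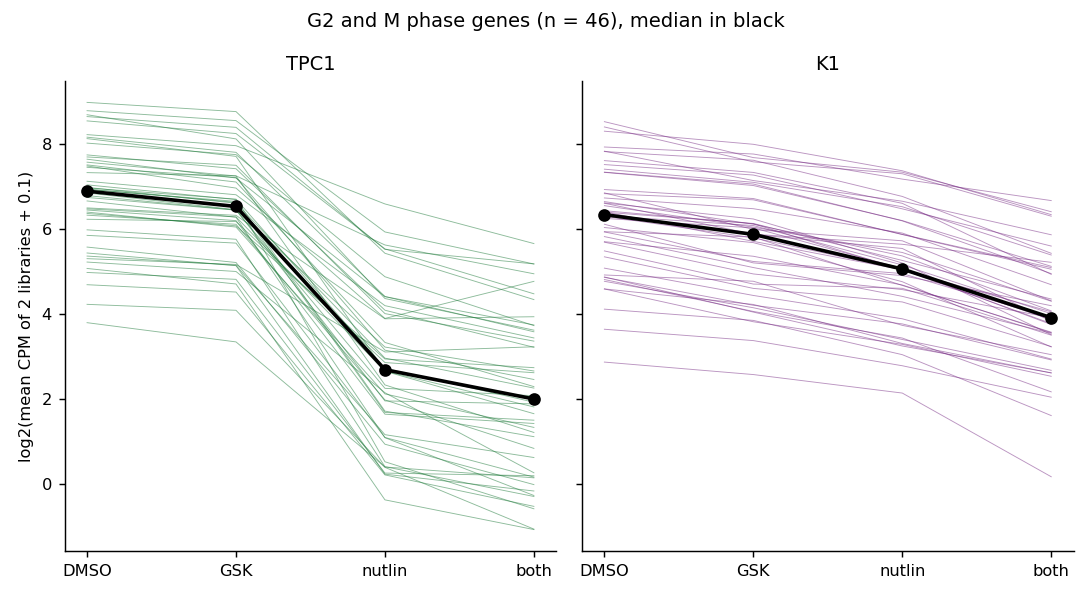
Log2 of the mean CPM of 2 libraries plus 0.1 for 46 genes of the G2 and M phases in TPC1 (left) and K1 (right) under DMSO, GSK2830371, nutlin and both drugs, one thin line a gene and the median in black. The drop under nutlin is much deeper in TPC1, and the step from nutlin to both drugs is steeper in K1 for most genes.

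The hexamer TTTGAA, the core of the element found in promoters of G2 and M phase genes, was in 75.0% of 40 promoters of that list with a RefSeq promoter, in 14.2% of those of all genes tested, in 22.9% of 340 of the genes called below 0 and in 11.3% of 345 of those above. It was in 48.0% of the 75 promoters of genes that fell in both lines.

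Among G1 and S phase genes 1 of 37 (2.7%) was called, against 5.11% of all genes tested. CCND1 (cyclin D1, chr11:69455924-69469242, plus strand), which starts the passage through G1, fell in TPC1 from 731 and 693 CPM to 282 and 283 CPM. In K1 it was at 768 and 758 CPM and then 722 and 689 CPM, a change of -0.11 that was not called. The line difference was 1.22 ± 0.10 (adjusted p = 3.7e-06), and without nutlin it was 0.21.

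In the unfolded protein response, which tunes the folding capacity of the endoplasmic reticulum, 4 of 26 genes were called. They were 2 each way (7.69%), against 2.56% each way of all genes tested. HSPA5 (BiP), the main chaperone there, rose in TPC1 from 1104 and 1132 CPM to 2404 and 2350 CPM, and was at 1597 and 1560 CPM and then 1829 and 1633 CPM in K1. XBP1, a transcription factor of this response, rose in TPC1 from 52.7 and 60.4 CPM to 144 and 183 CPM and was at 103 and 93.0 CPM and then 142 and 128 CPM in K1. Their line differences were -0.96 ± 0.12 (adjusted p = 9.4e-05) and -1.07 ± 0.18 (adjusted p = 0.0017). The chaperones PDIA4 and CRELD2 went the other way and fell in TPC1, with line differences of 0.67 and 0.70. Of 14 heat shock genes edgeR called 0 and DESeq2 called 0, and 5 had an unadjusted p under 0.05. Of 23 genes of heme and iron handling 1 (4.35%) was called, ABCG2, a porphyrin exporter, at -0.80, against 5.11% of all genes tested. HMOX1, which breaks down heme, was at 457 and 480 CPM and then 905 and 493 CPM in TPC1, and at 570 and 430 CPM and then 879 and 714 CPM in K1. In TPC1 only 1 of the 2 combination libraries lay clearly above the nutlin libraries, and the line difference was 0.10 ± 0.32 (adjusted p = 0.93).

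Inflammatory genes were split. Of 24 cytokine and NF-κB genes, 9 rose and 4 fell in TPC1 and 1 rose in K1, 6 (25.0%) were called below 0 and 3 above. Of all genes tested 6.58% rose and 5.85% fell in TPC1, 0.783% rose in K1, and 2.56% were called each way. CXCL8 (interleukin 8), a neutrophil chemokine, rose 5.24-fold in TPC1, from 3.30 and 4.24 CPM to 17.8 and 22.6 CPM. In K1 it was already at 35.03 and 30.87 CPM with nutlin and at 45.3 and 40.3 CPM with the combination, and the line difference was -2.01 ± 0.20 (adjusted p = 1.8e-05). IL11 and IL6, cytokines that signal through gp130, gave -1.58 and -1.13, and TRAF1 and RELB of the NF-κB pathway gave -2.15 and -0.75. BIRC3, TNFAIP2 and SOD2, which NF-κB also induces, fell in TPC1 and were called above 0, at 1.38, 0.78 and 0.72.

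Growth factor genes gave calls in both directions. HBEGF, a ligand of the EGF receptor, rose in TPC1 from 3.78 and 4.80 CPM to a mean of 14.4 CPM and was at 36.7 and 33.2 CPM and then 41.5 and 38.5 CPM in K1, with a line difference of -1.53 ± 0.17 (adjusted p = 4.4e-05). Of 21 genes that report MAP kinase output 3 (14.3%) were called below 0 (SPRY1, EPHA2 and DUSP5) and 2 (9.52%) above (DUSP6 and DUSP10). The share of all genes tested was 2.56% each way. EPHA2, an ephrin receptor, rose in TPC1 from 690 and 666 CPM to 1408 and 1508 CPM and was at 253 and 259 CPM and then 313 and 322 CPM in K1. DUSP10, a phosphatase of p38 and JNK, fell in TPC1 from 61.9 and 61.4 CPM to 27.2 and 26.1 CPM and was at 49.6 and 49.5 CPM and then 44.3 and 45.6 CPM in K1. JUN and KLF6 fell in TPC1 and had line differences of 0.63 and 0.85.

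**Figure D4:**
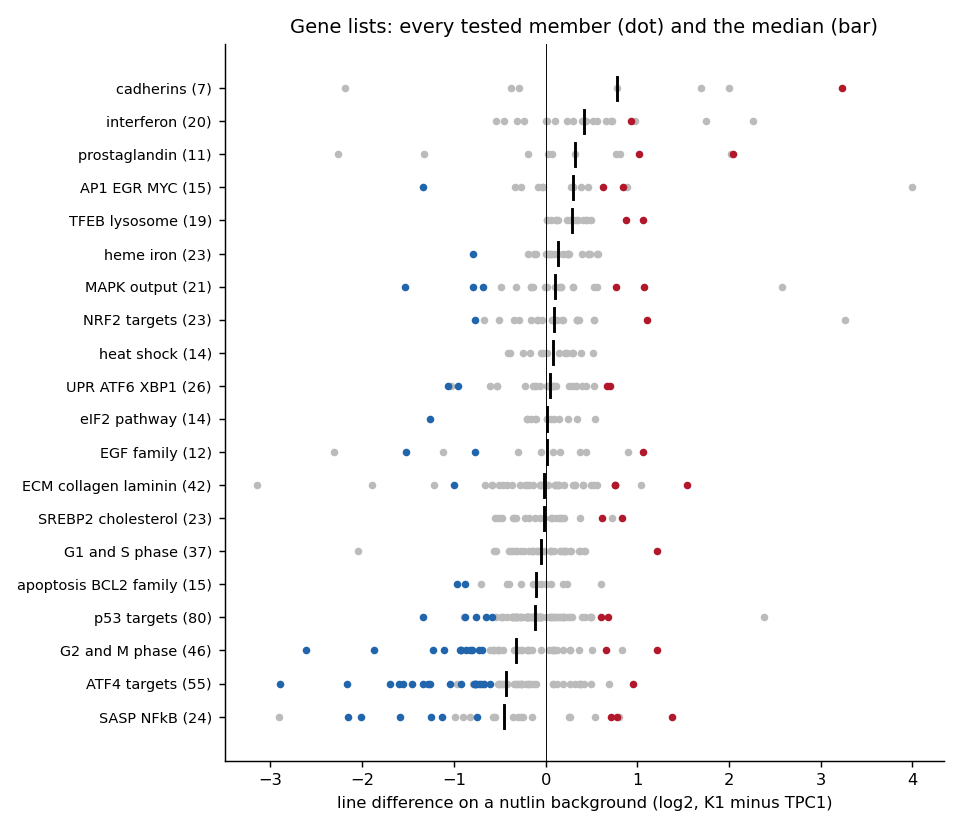
Line difference (log2, K1 minus TPC1) of every tested member of the gene lists, with red and blue for called values above and below 0, grey for the rest, a black bar at each list's median and the number of tested members in brackets. ATF4 targets and cytokine genes have medians of -0.43 and -0.45 and most of their called members to the left, whereas the lysosomal list lies to the right of 0.

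The called genes above 0 with large falls in TPC1 included secreted and adhesion proteins. STC1, a relative of STC2, moved opposite to it in TPC1. It fell in TPC1 from 22.6 and 24.1 CPM to 3.93 and 4.68 CPM and was at 225 and 214 CPM and then 210 and 202 CPM in K1, a line difference of 2.33 ± 0.11 (adjusted p = 1.2e-08). CDH6 (chr5:31193793-31329253, plus strand), a cadherin, fell in both lines, from 12.8 and 14.2 CPM to 0.477 and 0.526 CPM in TPC1 and from 740 and 975 CPM to 264 and 339 CPM in K1, a line difference of 3.23 ± 0.39 (adjusted p = 9.2e-05). HAS3, a hyaluronan synthase, fell in both as well, from 115 and 109 CPM to 23.9 and 26.5 CPM in TPC1 and from 6.82 and 9.15 CPM to 5.00 and 5.53 CPM in K1. PTGES, which makes prostaglandin E2, fell in TPC1 from 5.67 and 5.86 CPM to 1.24 and 2.02 CPM and was at 66.5 and 94.7 CPM and then 88.0 and 107 CPM in K1. The taurine transporter SLC6A6 fell in TPC1 from 217 and 197 CPM to 54.8 and 65.2 CPM and was at 41.2 and 49.7 CPM and then 49.5 and 55.3 CPM in K1. Under nutlin STC1, CDH6 and PTGES were higher in K1, and HAS3 and SLC6A6 were higher in TPC1.

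Of 19 lysosomal genes 2 (10.5%) were called, both above 0, against 2.56% of all genes tested, and both fell in TPC1. They were GLA (alpha-galactosidase) at 1.06 ± 0.15 (adjusted p = 0.00048) and NPC1, which moves cholesterol out of the lysosome, at 0.88 ± 0.17 (adjusted p = 0.0041). The list's median was 0.29 and 0 members lay below 0, against 8307 of the 16738 genes tested. Some members lay close to 0, such as LAMP1 (0.01 ± 0.11) and HEXA (0.02 ± 0.12), and CTSF had no count in the TPC1 nutlin libraries.

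Some of the largest differences rest on few counts in TPC1. LGR5, a receptor for R-spondins, had 6 and 22 counts with nutlin and 0 and 1 with the combination in TPC1, against 712 and 648 and then 488 and 459 counts in K1. NOS1 had 0 and 1 counts and then 2 and 7 in TPC1, against 2026 and 2234 and then 1637 and 1563 in K1. TEK had 14 and 45 counts and then 45 and 88 in TPC1, and at most 7 in any K1 library treated with nutlin. With such counts the fitted size depends on the prior count and is no bound. RAB39B, a Rab GTPase, had more, at 0.944 and 0.498 CPM and then 11.2 and 9.65 CPM in TPC1 and at 7.98 and 5.25 CPM and then 13.1 and 12.5 CPM in K1, a line difference of -3.02 ± 0.30 (adjusted p = 1.9e-05). Fibroblast and endothelial marker genes were among the called genes (PDGFRB at 1.31, and TEK). The summed level of 8 fibroblast markers was 11.5 to 12 CPM with nutlin and 4.91 to 6.77 CPM with the combination in TPC1, and 120 to 128 CPM and then 105 to 107 CPM in K1, with COL1A2, DCN, PDGFRA and FAP at or near 0 in TPC1. That of 5 endothelial markers, PECAM1 and CDH5 near 0 in both lines, was 0.539 to 0.835 CPM with nutlin and 1.6 to 1.75 CPM with the combination in TPC1, against 5.03 to 5.74 CPM and then 3.65 to 4.30 CPM in K1. Most of the endothelial sum was 1 gene, TEK in TPC1 (means of 0.597 and then 1.38 CPM) and KDR in K1 (4.53 and then 3.44 CPM). Most of the fibroblast sum in K1 was THY1 (92.7 and then 75.1 CPM). PDGFRB went the other way there, at 8.98 and then 13.1 CPM. The part of these markers in the result was not tested.

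The same line comparison without nutlin uses none of these 8 libraries. It called 100 genes above 0 (0.597%) and 265 below 0 (1.58%), 2.18% in either direction, and 184 and 439 with the replicate number of TPC1 as a block. With the GC and length trend removed 91 lay below 0. Leaving out 1 library gave 30 and 23 (K1 GSK2830371 replicate 1) up to 178 and 600 (TPC1 DMSO replicate 1), and each of the 8 libraries without nutlin moved a count by over 1.5 times. Of the 428 genes above 0 on nutlin, 277 (64.7%) were positive without it, against 52.1% of all genes tested, and 36 were called positive and 3 negative. Of the 428 below 0, 287 (67.1%) were negative, 28 were called negative and 1 was called positive. Over 12795 genes the line differences with and without nutlin had an r of 0.113 and a rho of 0.133. The 4 genes called in opposite directions were CPN2, KIAA1551 and KLHL24, above 0 on nutlin, and PORCN, below 0 on nutlin. PORCN, which attaches a fatty acid to Wnt proteins, was at -0.86 on nutlin and 0.81 without.

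The difference between these line differences was tested as well. Calls above 0 numbered 326 (1.95% of all tested) and calls below 0 numbered 199 (1.19%), 3.14% in either direction, and it was called for 131 (30.6%) of the genes above 0 and 108 (25.2%) of those below 0. With the replicate block in TPC1 it was called for 844 and 450 genes. The term shares the nutlin libraries that chose these genes, so the last shares are a description. The same holds for the adjusted p of the genes below that were named for a large line difference. DDIT3 (-1.31, adjusted p = 0.015), SLC1A4 (-1.54, 0.0041), KIF20A (-2.64, 0.00035), CXCL8 (-1.57, 0.0084), HSPA5 (-1.36, 0.00067), STC1 (1.76, 3.2e-05) and CCND1 (1.01, 0.0022) were among those whose line difference was larger with nutlin. For CHAC1 (0.02, adjusted p = 1), STC2 (-0.97, 0.2) and PCK2 (-0.58, 0.5) such a dependence was not called in the main fit, which held no replicate block. CDKN1A showed a called dependence of -0.99 (adjusted p = 0.018), since its line difference was 0.73 and called without nutlin and -0.26 with it.

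**Figure D5:**
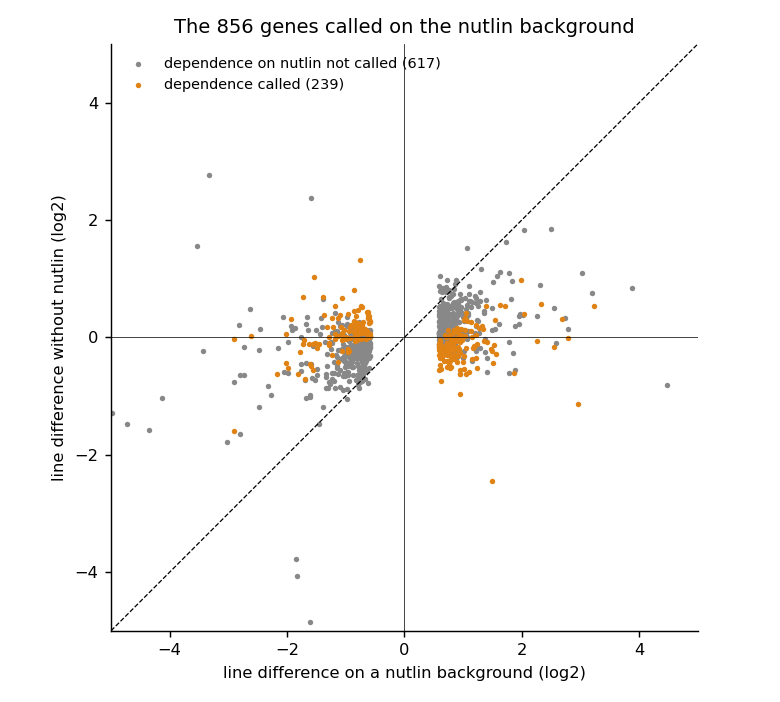
Line difference (log2, K1 minus TPC1) on a nutlin background (x axis) and without nutlin (y axis) for the 856 called genes, one dot a gene, orange where the dependence on nutlin was called (239) and grey where not (617), with a dashed line at equality and 7 genes outside the axes. Most dots lie near 0 on the y axis.

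The calls were read against the spread of 2 libraries a group. Scaling by library size alone moved the split from 428 above and 428 below to 556 and 356, without nutlin from 100 and 265 to 74 and 373, and for the dependence on nutlin from 326 and 199 to 612 and 139. Without K1 nutlin replicate 1 the fit called 267 genes above 0.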

How the data were processed

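The authors cultured TPC1 and K1 cells, extracted RNA with TRI Reagent, and sequenced strand-specific poly(A) libraries as single-end reads on an Illumina sequencer. Per the paper's methods and the submitters' processing notes, reads were aligned with TopHat2 2.0.13 to GRCh37 (hg19), low-quality alignments were removed, and HTSeq 0.6.1 counted reads per gene in reverse-stranded mode with a UCSC annotation. The SAMtools and FastQC versions differ between these sources. The deposited table holds raw, whole-number counts for 25369 genes in 16 columns, of which 4539 genes had no count. The 4 TPC1 columns numbered 3 carry a number that no label has (the labels say 2), and were assigned to their group only. All per-sample columns were used, and no rows of unassigned reads were in the table.

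CPM was computed here from the counts and library sizes scaled by TMM. The 16738 genes above 0.1 CPM in at least 2 libraries entered edgeR 4.0.16 (R 4.3.3, glmQLFit and glmQLFTest), with 1 mean for each of 8 groups, all 16 libraries and 8 residual degrees of freedom. The adjusted p of 0.05 and the 1.5-fold cutoff follow the study's methods, which used DESeq2, and the 0.1 CPM filter was chosen here. The script was tested on simulated data. Replicates of every group differed by more than sampling noise. Depth gives high precision for most genes, so that replicate spread limits the calls, and intervals of shares cover counting error only.

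Replicate numbers were checked for pairing over 12795 genes: the differences between replicates correlated at 0.334 to 0.504 between all TPC1 groups and at -0.231 to 0.23 between K1 groups, so the numbers were taken to pair samples in TPC1 and not in K1. The pairing comes from the data, since no label gives a shared day or batch. In TPC1 the replicate number also goes with library depth, and the part of depth in these correlations was not tested. The main fit held no block, so its SEs, adjusted p and calls leave this pairing out. Fits with a block are among the alternatives.

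Alternatives were DESeq2 1.42.0 (size factors, and its Wald test), library size scaling, 2 other filters, limma 3.58.1 voom with a weight for each line, the 8 nutlin libraries alone, replicate blocks, removal of a trend with GC content and transcript length (values for 94.4% of genes), and each library left out. The block in TPC1 alone was chosen after seeing the data. Members, gene lists and tests were chosen with earlier results of these data known. Named genes were the p53 and eIF2 genes of interest, the 10 largest called line differences each way at 5 CPM or more, genes called in opposite directions, up to 4 called members of each list, and genes of counts of 5 or fewer. Some genes that this rule names are not reported here. Genes named beside these, such as SLC1A5, ASNS, GDF15, ADM2, CTH, SLC3A2, IL6, RELB, BUB1B, CCNB2, AURKB and CTSF, were chosen after their values were seen. Gene positions are GRCh37 (GENCODE lift) and promoter windows GRCh38.p14 (RefSeq), and the builds were not mixed.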

Additional observations from a re-analysis of the deposited data

Results flagged for a closer look

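Both directions of the line comparison were singled out because the test of the difference between the lines called 428 genes above 0 and 428 below 0. The named genes it called follow, with their line differences on the log2 scale (K1 minus TPC1).

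Among stress response genes the values were -2.90 for DDIT3, -2.17 for SLC1A4, -1.70 for STC2, -1.60 for PCK2, -1.46 for CHAC1, -1.34 for ATF3, -1.26 for PPP1R15A and 0.95 for KLHL24. In the endoplasmic reticulum and heme lists they were -1.07 for XBP1, -0.96 for HSPA5, 0.67 for PDIA4, 0.70 for CRELD2 and -0.80 for ABCG2. Among p53 targets, p53 repressors and BCL2 family genes they were -0.88 for PMAIP1, -0.76 for GADD45A, -0.59 for PLK3, -0.65 for PTP4A1, -0.66 for MDM4, 0.68 for RNF144B, 0.60 for ABCA12 and -0.96 for BCL2.

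Cell cycle genes gave -2.61 for KIF20A, -1.93 for FAM83D, -1.87 for PIF1, -1.78 for HMGB2, -1.28 for FBXO5, -1.22 for CDCA8, 0.66 for FOXM1, 1.21 for SPC24 and 1.22 for CCND1.

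Cytokine, NF-κB and interferon genes gave -2.15 for TRAF1, -2.01 for CXCL8, -1.58 for IL11, 1.38 for BIRC3, 0.78 for TNFAIP2, 0.72 for SOD2 and 0.93 for IFI44. Growth factor, MAP kinase and AP-1 genes gave -1.53 for SPRY1, -1.53 for HBEGF, -0.79 for EPHA2, -0.77 for EREG, -0.68 for DUSP5, 0.77 for DUSP6, 1.07 for DUSP10, 1.06 for EGF, 0.63 for JUN and 0.85 for KLF6.

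Matrix, adhesion and prostaglandin genes gave 0.76 for COL6A3, 0.75 for COL8A1, 1.55 for HAS3, 3.23 for CDH6, 2.04 for PTGES and 1.01 for PLA2G4A. Lysosomal and NRF2 target genes gave 1.06 for GLA, 0.88 for NPC1, 1.10 for AKR1C3 and -0.77 for ABCC3.

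The remaining genes gave -3.02 for RAB39B, -2.81 for CSTA, -2.32 for KCNG1, -2.28 for BEX2, -2.05 for DRAXIN, -0.86 for PORCN, 0.62 for KIAA1551, 1.29 for GCNT3, 1.31 for PDGFRB, 1.49 for CPN2, 1.63 for PDGFRL, 1.97 for NDRG4, 1.99 for SLC6A6, 2.26 for BNC2, 2.30 for OLFML2B, 2.33 for STC1, 2.55 for GPRIN3 and 2.68 for LOC101927642. Few counts in 1 line lie behind -5.45 for CCIN, -3.33 for NOS1, 3.87 for LGR5 and -2.90 for TEK, fitted values that depend on the prior count. The sizes for BNC2 and GPRIN3 also varied over the alternatives, from 1.66 to 4.88 and from 1.77 to 3.43.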

How the results depend on the processing

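The counts of called line differences above and below 0 on nutlin (428 and 428) stayed between 353 and 556 and between 356 and 573 under the alternatives that keep all libraries. Of 79 called named genes, 47 were called in all 28 alternatives, 18 lost the call in 1 to 5 and 14 in more, and 0 changed sign. Those 14 were NOS1, CPN2, KIAA1551, ABCA12, EGF, EREG, PIF1, CRELD2, ATF3, PLA2G4A, TEK, SPC24, BCL2 and COL6A3. With 2 libraries a group, single libraries decide many calls, and depth limits genes with few counts in TPC1. The causes of the shifts below were not tested.

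The replicate block in both lines gave 174 and 439 genes without nutlin and 826 and 442 for the dependence on nutlin. The block in TPC1 alone, where the numbers pair the samples, gave 184 and 439, and 844 and 450. It moved no other count by more than 1.5 times. With the GC and length trend removed, genes below 0 without nutlin numbered 91, 140 with the block and 143 with the block in TPC1 alone. The dependence counts were then 501 and 421 with the block and 504 and 427 with it in TPC1 alone, and in all 3 fits 1 p53 target was above 0.

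Library size scaling gave 612 genes with a positive dependence and 7 G2 and M phase genes below 0. filterByExpr gave 1 p53 target above 0. Without a filter there were 468 genes below 0 without nutlin, 744 and 380 for the dependence and 2 ATF4 targets above 0. The DESeq2 Wald test gave 306 genes with a negative dependence. limma voom gave 222 genes raised in K1, 2 G2 and M phase genes below 0 and 1 above, and 1 p53 target above 0.

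Leaving out 1 library gave 267 (without K1 nutlin replicate 1) to 521 line differences above 0 and 293 to 479 below. Without nutlin the ranges were 30 to 178 and 23 to 600, lowest without K1 GSK2830371 replicate 1 and highest without TPC1 DMSO replicate 1, and every DMSO library, K1 GSK2830371 replicate 2 and both TPC1 GSK2830371 libraries also moved a count by over 1.5 times. The dependence ranged from 73 to 722 and from 71 to 397, lowest without K1 combination replicate 2 and highest without TPC1 DMSO replicate 1. The positive count also moved by over 1.5 times without each other nutlin-treated library of K1, either TPC1 nutlin library, K1 DMSO, K1 GSK2830371 or TPC1 GSK2830371 replicate 1. Within lines the ranges were 873 to 1137 raised and 808 to 1056 lowered in TPC1, and 61 to 146 and 98 to 231 in K1, lowest without K1 nutlin replicate 2 and at 69 and 70 raised without K1 combination replicate 1 and 2. ATF4 targets ranged from 13 to 24 below 0 and 0 to 2 above, G2 and M phase genes from 3 to 16 and 0 to 2, and p53 targets from 3 (without K1 combination replicate 1 or TPC1 nutlin replicate 3) to 5 and 0 to 3.

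For values with no test, the SD over the fits that leave out 1 library stood in for a replicate spread. The correlation of the changes in TPC1 and K1 over genes with a mean of 1 CPM or more across all libraries was 0.354. It ran from 0.266 to 0.429 and moved by more than 1 SD (0.0251) in 6 of 28 alternatives. The r of 0.509 over 11577 genes was not recomputed under the alternatives. The median line difference of all genes ran from -0.03 to 0.06 and moved by more than 1 SD (0.00793) in 11 of 28.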
